A study of Drosophila melanogaster with 9 samples.

Results

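The Hippo pathway restrains the growth of fly imaginal discs through a chain of kinases. The kinase Hippo (gene hpo), with its scaffold Salvador (sav), phosphorylates the kinase Warts (wts) and its cofactor Mats (mats), and Warts in turn phosphorylates the coactivator Yorkie (yki) and so keeps it out of the nucleus. Expanded (ex) and Merlin (Mer), related membrane proteins with a FERM domain, feed into this chain from the cell cortex, and the giant cadherin Fat (ft) does so from cell contacts, where it binds the cadherin Dachsous (ds). The Golgi kinase encoded by fj phosphorylates the cadherin domains of Fat and Dachsous and tunes their binding. The pathway acts mainly through phosphorylation and the placing of its proteins, which transcript levels do not show. In wing discs ex, fj and Mer are also known as targets of Yorkie, and fj and ds are known for opposed patterns, with fj high in the distal wing and ds high proximally.

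These 10 genes were followed in 3 sorted cell populations of the wing imaginal disc, the larval epithelial sac that forms the adult wing. The probe table of the Affymetrix array assigned 1 probe set each to 9 of them and none to ft, which is not analysed here, so 9 of 11982 measured genes are described. The genes lie on the X chromosome (Mer) and on chromosome arms 2L (ex, ft and ds), 2R (hpo, yki and fj) and 3R (sav, mats and wts) of the Drosophila melanogaster assembly GCF_000001215.4.

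All larvae were of w1118 background and about 8 days old, and all carried the en-gal4 driver, transgenes for p35 (a viral inhibitor of caspases), for double-stranded RNA against asp (a spindle pole protein gene) and for RFP, and an MMP1-GFP reporter. The driver is active in the posterior compartment, so the anterior cells came from discs with the same transgenes and no driver activity. The delaminating group was positive for RFP and for MMP1-GFP (titles Posterior-High), the posterior group was positive for RFP alone (Posterior-Low), and the anterior group was negative for both. Each group had 3 arrays, labelled biological replicates, and no discs without the transgenes were part of the comparison. The labels do not say how many discs went into a sample.

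Signals were deposited on the log2 scale, and the medians of the arrays lay between 7.48 and 7.57, the lower quartiles between 6.05 and 6.36. Anterior replicate 3 stood apart, with correlations of 0.889 to 0.915 with the other 8 arrays, against 0.943 to 0.987 among those, and with a narrower spread of signals (SD 1.83, against at least 2.01 on the others). The split by RFP was borne out by genes of the compartments. en, hh and inv, which mark posterior cells, were called higher in both RFP-positive groups than in anterior cells, and the anterior factor gene ci was called lower in both (limma, Benjamini-Hochberg adjusted p between 0.000222 and 0.00291). These genes do not test the split by MMP1-GFP, and 0 of the 4 were called in delaminating against posterior cells. No probe set was assigned to asp or Mmp1 in the table used. Every array measures the RNA of many cells together, so fewer cells of a type and less RNA per cell cannot be told apart.

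None of the 9 measured genes passed the test in any of the 3 comparisons, at an adjusted p under 0.05 by limma's moderated test over 11982 genes. The test called 0.801% of all genes in delaminating against posterior cells, 0.576% in posterior against anterior cells and 3.82% in delaminating against anterior cells. At an unadjusted p under 0.05, 1 member (ds) stood in the first comparison, 2 (ex and ds) in the second and 2 (ex and fj) in the third, beside 9.98%, 9.6% and 16.6% of all genes. The member nearest to a call was fj, in delaminating against anterior cells, with an adjusted p of 0.0605. The comparisons share groups, so a gene's values in them are not independent.

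**Figure D1:**
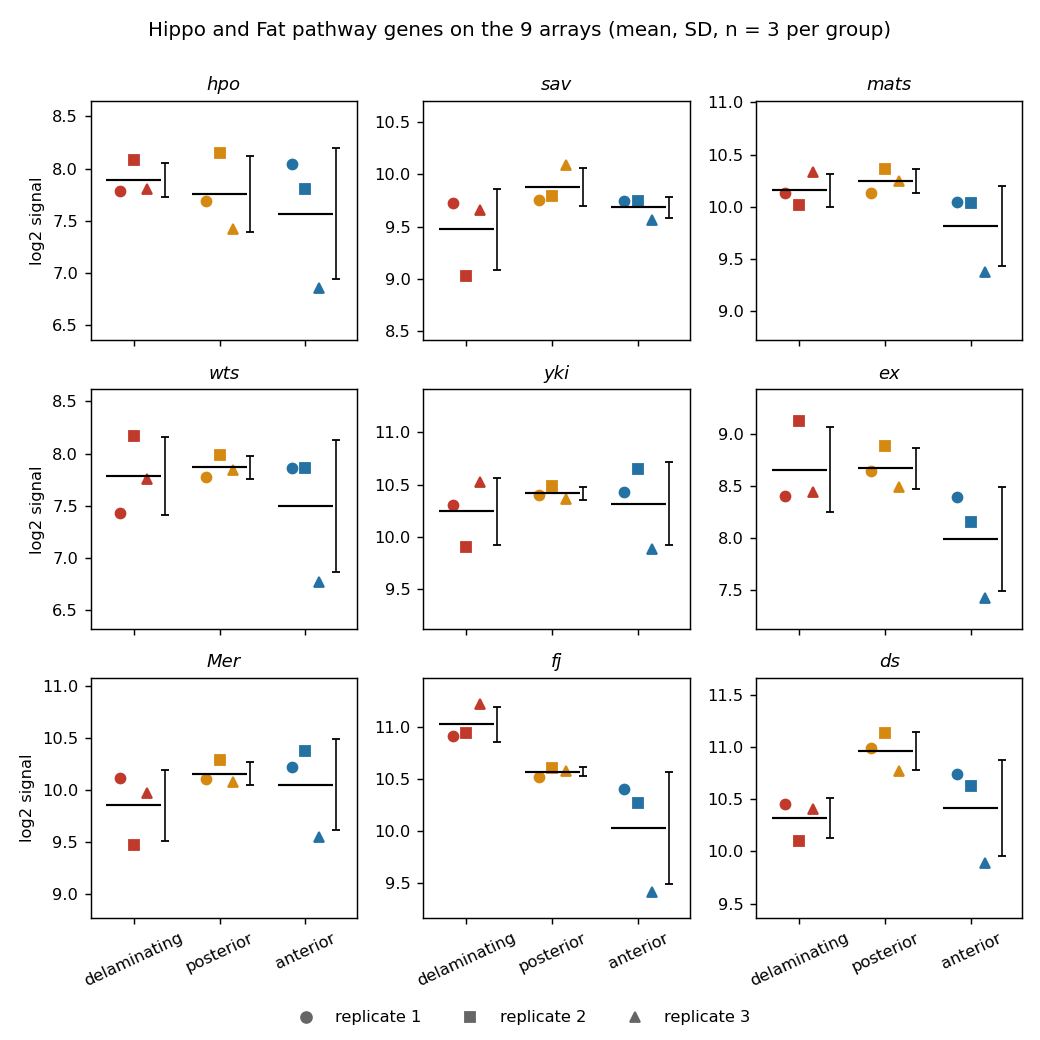
Log2 signal (vertical axes, each spanning the same range) of the 9 measured genes in delaminating, posterior and anterior cells. Points are arrays with a shape per replicate, horizontal lines are means and bars are SD (n = 3). All 9 genes have their lowest anterior value on anterior replicate 3, and the fj values do not overlap between any pair of groups.

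The replicate error set what could be seen. Standard errors of a difference between groups ran from 0.21 to 0.31 on the log2 scale, and the 95% intervals reached 0.47 to 0.69 to either side. The median size of the members' differences between delaminating and posterior cells was 0.17, against 0.18 over all genes.

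**Figure D2:**
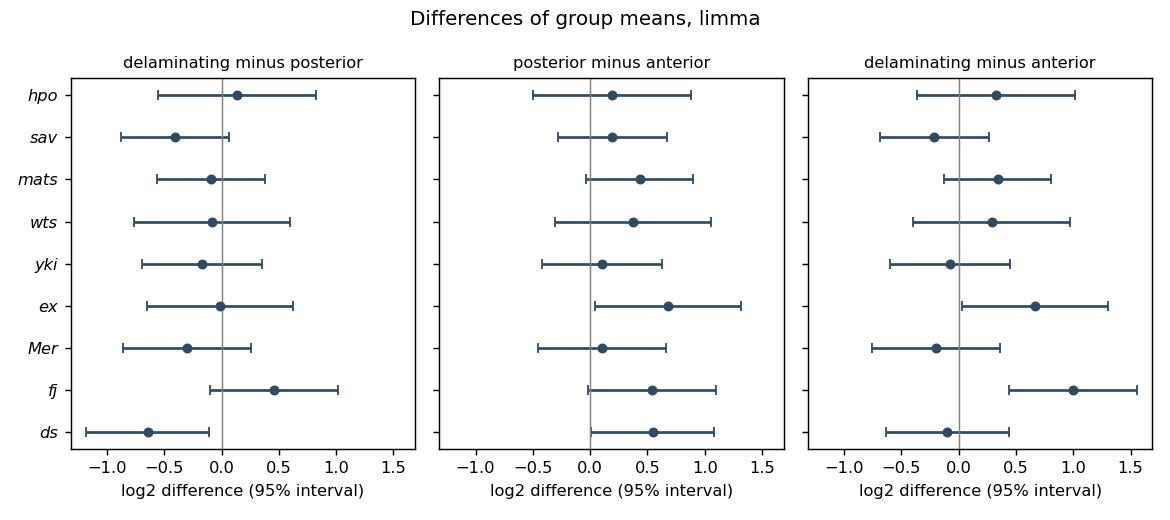
Log2 differences of group means (horizontal axes) with 95% intervals from limma for the 9 genes, in delaminating minus posterior, posterior minus anterior and delaminating minus anterior cells. The interval of fj in delaminating minus anterior cells, from 0.44 to 1.55, lies farthest from 0.

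Among the genes of the kinase chain, hpo had signals of 7.79, 8.08 and 7.81 in delaminating cells, 7.69, 8.15 and 7.42 in posterior cells, and 8.04, 7.81 and 6.85 in anterior cells. The ranges of the 3 groups overlapped. Delaminating and posterior cells differed by 0.14 ± 0.31 (log2 difference ± SE, n = 3 arrays per group), with an interval from a 0.682-fold to a 1.77-fold ratio. wts, the kinase that acts on Yorkie, had 7.43, 8.17 and 7.76 in delaminating cells, against 7.78, 7.99 and 7.84 in posterior cells and 7.86, 7.86 and 6.76 in anterior cells. Its groups overlapped as well, and its delaminating minus posterior difference was -0.08 ± 0.31.

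mats, the cofactor of Warts, gave 10.13, 10.01 and 10.33 in delaminating cells, 10.14, 10.36 and 10.25 in posterior cells, and 10.04, 10.03 and 9.37 in anterior cells. All posterior values lay above all anterior values, by a mean of 0.43 ± 0.21 (adjusted p = 0.541), and the delaminating values overlapped both other groups. On anterior replicate 3 the signal of mats stood at -0.66 from the mean of the other anterior arrays, and without that array the posterior minus anterior difference was 0.21.

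sav, the scaffold of Hippo, gave 9.73, 9.03 and 9.66 in delaminating cells, 9.76, 9.79 and 10.09 in posterior cells, and 9.74, 9.74 and 9.56 in anterior cells. Every delaminating value lay below every posterior one, though the closest pair differed by little, and the difference was -0.41 ± 0.21 (adjusted p = 0.59). Delaminating replicate 2 held the low value, and without it the difference was -0.19. For sav this array decided most of the distance between the groups.

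yki, the coactivator at the end of the chain, had 10.31, 9.90 and 10.53 in delaminating cells, 10.40, 10.49 and 10.36 in posterior cells, and 10.43, 10.65 and 9.88 in anterior cells. Its 3 group means lay within 0.17 of each other, the smallest range among the 9 genes, and all groups overlapped. The interval of its difference between delaminating and posterior cells ran from a 0.617-fold to a 1.27-fold ratio, and between delaminating and anterior cells from 0.662-fold to 1.37-fold. A change of yki transcript past those bounds lay outside the intervals, while smaller changes could not be told from replicate error.

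Of the genes of the FERM proteins, ex had 8.40, 9.12 and 8.44 in delaminating cells, 8.64, 8.88 and 8.49 in posterior cells, and 8.39, 8.15 and 7.43 in anterior cells. Both groups of RFP-positive cells lay wholly above the anterior cells. The difference was 0.66 ± 0.28 for delaminating minus anterior cells (1.58-fold, adjusted p = 0.283) and 0.68 ± 0.28 for posterior minus anterior cells (1.6-fold, adjusted p = 0.501). Delaminating and posterior cells differed by -0.01 ± 0.28. Without anterior replicate 3 the differences of ex from anterior cells were 0.38 in delaminating and 0.40 in posterior cells. Mer had 10.12, 9.47 and 9.97 in delaminating cells, 10.11, 10.28 and 10.08 in posterior cells, and 10.22, 10.38 and 9.55 in anterior cells. Its groups overlapped, with a delaminating minus posterior difference of -0.30 ± 0.25 (adjusted p = 0.805), and of -0.11 without delaminating replicate 2, its lowest array.

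fj and ds, the pair that tunes and binds Fat, differed most between delaminating and posterior cells among the 9 genes, in opposite directions. fj had 10.92, 10.94 and 11.22 in delaminating cells, 10.52, 10.61 and 10.58 in posterior cells, and 10.41, 10.27 and 9.42 in anterior cells. The groups stood in this order with no overlap. fj was 0.46 ± 0.25 higher in delaminating than in posterior cells on the log2 scale (adjusted p = 0.617), 0.54 ± 0.25 higher in posterior than in anterior cells (adjusted p = 0.529), and 0.996 ± 0.25 higher in delaminating than in anterior cells (1.99-fold, interval 1.35-fold to 2.94-fold, adjusted p = 0.0605). The posterior minus anterior difference of fj was 0.23 without anterior replicate 3.

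ds had 10.46, 10.10 and 10.40 in delaminating cells, 10.99, 11.13 and 10.78 in posterior cells, and 10.74, 10.63 and 9.89 in anterior cells. Posterior cells had the highest values, without overlap with either other group, and delaminating and anterior cells overlapped. The difference was -0.65 ± 0.24 for delaminating minus posterior cells (1.56-fold lower, adjusted p = 0.371) and 0.55 ± 0.24 for posterior minus anterior cells (adjusted p = 0.515). The posterior minus anterior difference of ds was 0.28 without anterior replicate 3. Delaminating minus anterior cells gave -0.10 ± 0.24, and -0.36 without that array.

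Groups without overlap were common on these arrays, which bears on the counts above. In delaminating against posterior cells 1 member lay above (fj) and 2 below (sav and ds), beside 10.7% of all genes above and 11.5% below. In posterior against anterior cells 5 members lay above (sav, mats, ex, fj and ds) and 0 below, beside 11.9% of all genes above. In delaminating against anterior cells 2 lay above (ex and fj) and 0 below, beside 13.2% of all genes above. The share of all genes below is not given for the comparisons with anterior cells, so the counts of 0 below cannot be set against it.

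A difference between 2 genes taken within each array removes whatever moves both signals of that array alike. This measure was chosen after the values had been seen and has no test, and only its change between groups can be read, since signals of different probe sets have no common scale. The signal of fj minus that of ds was 0.46, 0.85 and 0.82 in delaminating cells, -0.47, -0.52 and -0.20 in posterior cells, and -0.33, -0.35 and -0.48 in anterior cells. Delaminating cells lay wholly above the others, and anterior replicate 3, low for each gene, fell beside the other anterior arrays. The mean was 0.71 ± 0.22 in delaminating cells, against -0.39 ± 0.17 in posterior and -0.39 ± 0.08 in anterior cells (SD, n = 3), a shift of 1.10 from either. Over the 19 alternative settings that shift ran from 0.96 to 1.23 for delaminating minus posterior cells and from 0.91 to 1.22 for delaminating minus anterior cells. Settings such as a replicate block or a filter of dim genes cannot alter a difference of group means, so this range is no test of the shift.

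**Figure D3:**
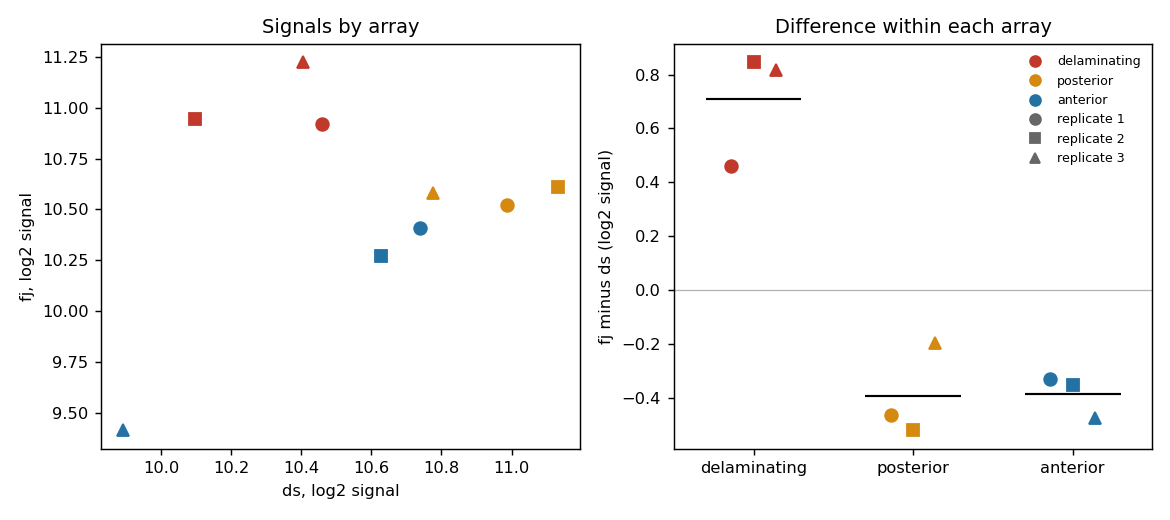
Left, log2 signal of fj (vertical) against that of ds (horizontal) on each array. Right, fj minus ds within each array by group, with group means as lines: the delaminating arrays lie between 0.46 and 0.85, and the posterior and anterior arrays between -0.52 and -0.20.

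Because fj and ds are patterned along the proximal to distal axis of the disc, markers of disc regions are set beside them. Of the list for the proximal wing and hinge 4 of 5 genes were measured, and all 4 were below 0 in delaminating minus posterior cells. tsh, a zinc finger gene of the proximal disc, and Doc2, a T-box gene, were called lower there, with log2 differences of -1.11 ± 0.17 (adjusted p = 0.0283) and -1.34 ± 0.24 (adjusted p = 0.0392). These calls depended on the setting: tsh was called in 12 of 19 alternatives (adjusted p up to 0.164) and Doc2 in 10 (up to 0.18), and a replicate block ended both (0.0547 and 0.069). Against anterior cells tsh gave -2.15 ± 0.17 in delaminating (adjusted p = 0.000222) and -1.04 ± 0.17 in posterior cells (adjusted p = 0.0319). The rest of the list did not follow tsh in posterior minus anterior cells. There 3 of 4 genes (zfh2, Doc1 and Doc2) were above 0, at a list median of 0.76, and of 0.41 without anterior replicate 3. In delaminating minus anterior cells 1 of 4 (zfh2) was above 0, at a list median of -0.52. The mean signal of the list ran from 7.26 to 7.57 in delaminating cells, 8.48 to 8.59 in posterior cells and 7.52 to 8.49 in anterior cells. Of 5 wing pouch genes 0 were called in this comparison (2, nub and Dll, at an unadjusted p under 0.05, both below 0), and the list mean ran from 10.97 to 11.18 in delaminating, 11.33 to 11.54 in posterior and 10.90 to 11.35 in anterior cells. The part of regional makeup in the values of fj and ds was not tested.

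Whether fj was called in delaminating against anterior cells depended on the setting, and as reported it was not called. Without anterior replicate 3 the difference was smaller, at 0.69, and passed with an adjusted p of 0.0348, where 4.73% of all genes were called. It passed in 7 of 19 alternative settings, with adjusted p from 0.00442 to 0.194 and differences from 0.69 to 1.18. For ds in delaminating minus posterior cells the difference lay between -0.74 and -0.53 over the settings, and 1 of the 19, array weights, called it (adjusted p = 0.0384, with 6.25% of all genes called).

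**Figure D4:**
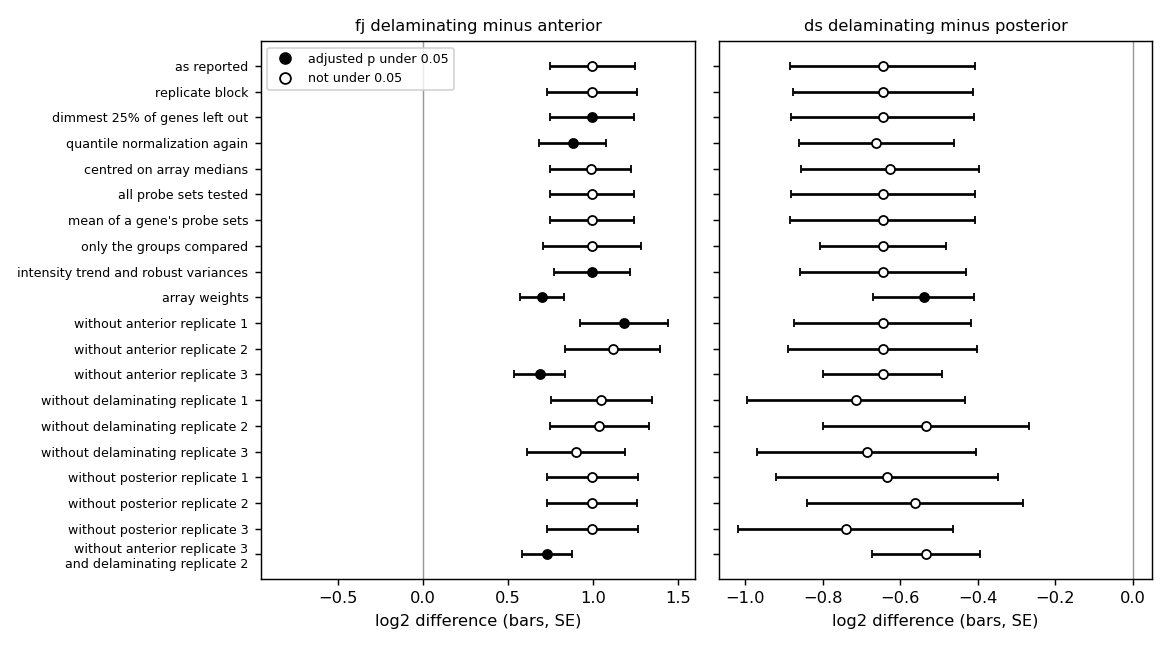
Log2 difference with SE (horizontal axes) of fj in delaminating minus anterior cells and of ds in delaminating minus posterior cells, as reported and under 19 alternative settings (rows). Filled points have an adjusted p under 0.05: 7 for fj and 1 for ds.

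fj had the widest range of group means of the 9 genes, at 0.996. Among 11973 other genes its values over the 9 arrays were most like those of Cortactin, a gene for an actin-binding protein (Pearson r = 0.993, Spearman rho = 0.983), of Vps24, a gene of the ESCRT membrane scission machinery (r = 0.982, rho = 0.95), and of CG44325 (r = 0.981, rho = 0.883). These are the highest of many correlations and carry no p. Without anterior replicate 3 and delaminating replicate 3, the arrays farthest from the median of fj, r was 0.976, 0.943 and 0.90 over 7 arrays.

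Single arrays moved several members at once. All 9 genes had their lowest anterior value on anterior replicate 3, as did 59.2% of all genes, and 7 of 9 had their lowest value of all arrays there, as did 40.5% of all genes. The member median on that array lay -0.79 from the mean of the other anterior arrays, against -0.24 over all genes. In posterior minus anterior cells all 9 members were above 0 with a median of 0.37, against 0.09 over all genes. Without anterior replicate 3, 6 of 9 were above 0 with a median of 0.14, against 0.01 over all genes. In delaminating minus anterior cells 5 of 9 were above 0 with a median of 0.29, and without that array 3 of 9 with a median of -0.08.

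Delaminating replicate 2 was the lowest delaminating array for 5 members (sav, mats, yki, Mer and ds) and the highest for 3 (hpo, wts and ex). On this array all 8 markers of hemocytes, the larval blood cells, had their highest value of the 9 arrays. Their mean was 9.99 there, against 7.98 and 7.78 on the other delaminating arrays, 6.55 to 8.06 in posterior cells and 7.24 to 8.41 in anterior cells. In delaminating minus posterior cells all 8 were above 0 at a median of 1.43, and 0 were called. Without this array 6 of 8 were above 0 at a median of 0.60, and 0 were called. With a replicate block over all 9 arrays 2 were called. In delaminating minus anterior cells all 8 were above 0 at a median of 0.85, and 5 of 8 at 0.18 without this array. Anterior cells differed from both other groups in markers of muscle precursors, the mesodermal cells under the disc epithelium. The mean of 5 of 6 such genes lay between 6.47 and 7.12 in delaminating cells and between 7.02 and 7.77 in posterior cells, against 10.86 to 11.20 in anterior cells, and 5 were called lower in delaminating (twi, htl, Him, zfh1 and hbs) and 4 in posterior than in anterior cells (all but hbs). Delaminating cells also differed from posterior cells in this list. Him, a muscle progenitor gene, and hbs, a cell adhesion gene of myoblasts, were called lower in delaminating cells, with log2 differences of -1.95 ± 0.33 (adjusted p = 0.0381) and -1.27 ± 0.24 (adjusted p = 0.0465). A replicate block ended both calls (adjusted p = 0.0547 for each), and they held in 10 and 9 of 19 alternatives. The other 3 genes were not called there, with twi and htl below 0 and zfh1 above. The part of either cell type in the values of the pathway genes was not tested.

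The other marker lists held 3 called genes, and their mean signals are given beside these without a test. The means of 3 epithelial genes lay between 11.01 and 11.06 in delaminating, 10.94 and 10.95 in posterior and 10.56 and 10.89 in anterior cells. Those of 5 notum genes ran from 7.28 to 7.64, 7.75 to 8.33 and 7.68 to 8.87 in the same order of groups, those of 3 glial genes from 8.10 to 8.43, 7.33 to 7.52 and 6.58 to 7.29, and those of 2 tracheal genes from 10.75 to 11.22, 10.80 to 10.95 and 10.51 to 10.80. The 3 fat body genes gave 7.70 to 8.40, 7.52 to 7.70 and 7.49 to 7.68. Among the notum genes mirr, a homeobox gene, was called lower in delaminating than in posterior cells (-1.82 ± 0.32, adjusted p = 0.0381, and 0.0726 with a replicate block), in 9 of 19 alternatives as well. A single gene carried most of the distance of delaminating cells from the other groups in the glial and in the fat body mean. moody, a gene of the glial blood-brain barrier, was 10.8-fold higher in delaminating than in anterior cells (adjusted p = 0.0021). In delaminating minus posterior cells moody gave 2.13 ± 0.42 (adjusted p = 0.0576). repo, the defining glial gene, gave 0.43 ± 0.20 in delaminating minus anterior and 0.07 ± 0.20 in delaminating minus posterior cells. loco gave 0.54 ± 0.24 and 0.36 ± 0.24 in the same order. FASN1, a fatty acid synthase gene, was 3.18-fold higher in delaminating than in anterior cells (adjusted p = 0.0021). In delaminating minus posterior cells FASN1 gave 0.83 ± 0.21 (adjusted p = 0.13). Fbp1, a receptor gene of the fat body, gave -0.17 ± 0.19 in delaminating minus anterior and 0.08 ± 0.19 in delaminating minus posterior cells. Lsp2 gave -0.34 ± 0.38 and 0.18 ± 0.38 in the same order. Both calls against anterior cells held in 19 of 19 alternatives.

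Other genes of the pathway were described by role. Of 17 regulators of the kinase chain, 16 were measured and limma called 0 in each comparison, with a median of -0.11 in delaminating minus posterior, 0.25 in posterior minus anterior and 0.23 in delaminating minus anterior cells, against 0.00, 0.09 and 0.05 over all genes. The medians against anterior cells were 0.08 in posterior and 0.07 in delaminating cells without anterior replicate 3. In these comparisons 0, 4 and 2 of the 16 had an unadjusted p under 0.05, beside 9.98%, 9.6% and 16.6% of all genes. crb, the apical polarity gene whose protein binds Expanded, had the smallest p of the list. Its signals were 10.94, 11.19 and 10.89 in delaminating cells, 10.79, 10.90 and 10.86 in posterior cells, and 10.58, 10.32 and 9.93 in anterior cells. Both RFP-positive groups lay wholly above anterior cells, delaminating cells by 0.73 ± 0.19 (adjusted p = 0.0737). sdt, the gene of the protein that anchors Crumbs, differed by 0.50 ± 0.17 in the same comparison (adjusted p = 0.174).

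Of 8 further genes of the Fat and Dachsous branch 7 were measured, and limma called 0, with 0, 2 and 3 at an unadjusted p under 0.05 in the 3 comparisons. The shares of all genes at that p were 9.98%, 9.6% and 16.6%. All 7 were above 0 in both comparisons with anterior cells, at medians of 0.39 in posterior and 0.44 in delaminating cells. In delaminating minus posterior cells 5 of 7 were above 0 at a median of 0.05. Without delaminating replicate 2 this turned, with 2 of 7 above 0 at a median of -0.12. Leaving out the same array gave 6 of 7 in delaminating minus anterior cells at a median of 0.30. Without anterior replicate 3, 5 of 7 were above 0 in posterior minus anterior cells at a median of 0.24 (dco and Zyx below 0), and 6 of 7 in delaminating minus anterior cells at a median of 0.36 (Zyx below 0). lft, whose protein lowers the breakdown of Fat and Dachsous, had 9.42, 9.50 and 9.78 in delaminating cells, 9.07, 9.35 and 9.20 in posterior cells, and 8.60, 9.02 and 8.02 in anterior cells. Like fj it was ordered delaminating, posterior, anterior without overlap, with a delaminating minus anterior difference of 1.02 ± 0.25 (2.03-fold, adjusted p = 0.0521). That difference ran from 0.60 to 1.26 over 19 alternatives, and 7 of them called it (adjusted p from 0.0257 to 0.182). The posterior minus anterior difference of lft was 0.66, and 0.40 without anterior replicate 3. Fbxl7, an F-box gene that acts downstream of Fat, had 0.59 ± 0.16 in posterior minus anterior cells (adjusted p = 0.226).

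Of 8 nuclear partners of Yorkie 6 were measured, and 1 was called. Wbp2, whose product binds Yorkie and raises its activity, rose in delaminating against anterior cells by 0.95 ± 0.19 on the log2 scale (1.93-fold, adjusted p = 0.0222). Its signals were 9.08, 9.02 and 9.35 in delaminating cells, 7.99, 8.33 and 8.24 in posterior cells, and 8.28, 8.39 and 7.94 in anterior cells. Delaminating cells lay apart from both other groups, which overlapped each other. Against posterior cells the difference was 0.96 ± 0.19 (1.95-fold, adjusted p = 0.0532), and posterior minus anterior cells gave -0.01 ± 0.19. The difference from posterior cells, not called as reported, was called in 8 of 19 alternatives (adjusted p from 0.00195 to 0.271). The call against anterior cells was lost in 4 of 19 alternatives: without delaminating replicate 1 (adjusted p = 0.0717), without delaminating replicate 3 (0.0953), with a replicate block (0.0517) and with only the arrays of the groups compared (0.0863). The lowest adjusted p over the 19 was 0.00235. The list had medians of 0.03, 0.28 and 0.40 in delaminating minus posterior, posterior minus anterior and delaminating minus anterior cells, and without anterior replicate 3 the last 2 were 0.11 and 0.14. Without delaminating replicate 2 the first was -0.23 and the last 0.44.

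Of 12 further known targets of Yorkie in the wing disc, only 5 were measured. The members ex, fj and Mer, also known targets, were kept out of this list, and their values are given above. Among the 5, limma called 0, with 1, 2 and 3 at an unadjusted p under 0.05 in the same order of comparisons. The shares of all genes at that p were 9.98%, 9.6% and 16.6%. Probe sets for other targets such as Diap1, Myc and wg were not assigned in the table used. Of those measured 4 of 5 were above 0 in each comparison, at medians of 0.15, 0.21 and 0.49. The medians over all genes were -0.003, 0.09 and 0.05. Without delaminating replicate 2, 3 of 5 were above 0 in delaminating minus posterior cells at a median of 0.06. CycE and kibra were below 0 there. The same array left out gave 3 of 5 at 0.38 in delaminating minus anterior cells. Besides crb, which this list also holds, shg, the E-cadherin gene, had the smallest p, with a delaminating minus anterior difference of 0.49 ± 0.15 (adjusted p = 0.134). The 1 target with an unadjusted p under 0.05 in delaminating against posterior cells, named after its value had been seen, was dlp, a glypican gene, with 0.47 ± 0.18 (adjusted p = 0.403) and 0.28 without delaminating replicate 2. The list's medians against anterior cells were 0.13 in posterior and 0.41 in delaminating cells without anterior replicate 3. Without that array 4 of 5 were above 0 in posterior minus anterior cells, and 3 of 5 in delaminating minus anterior cells (CycE and kibra below).

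**Figure D5:**
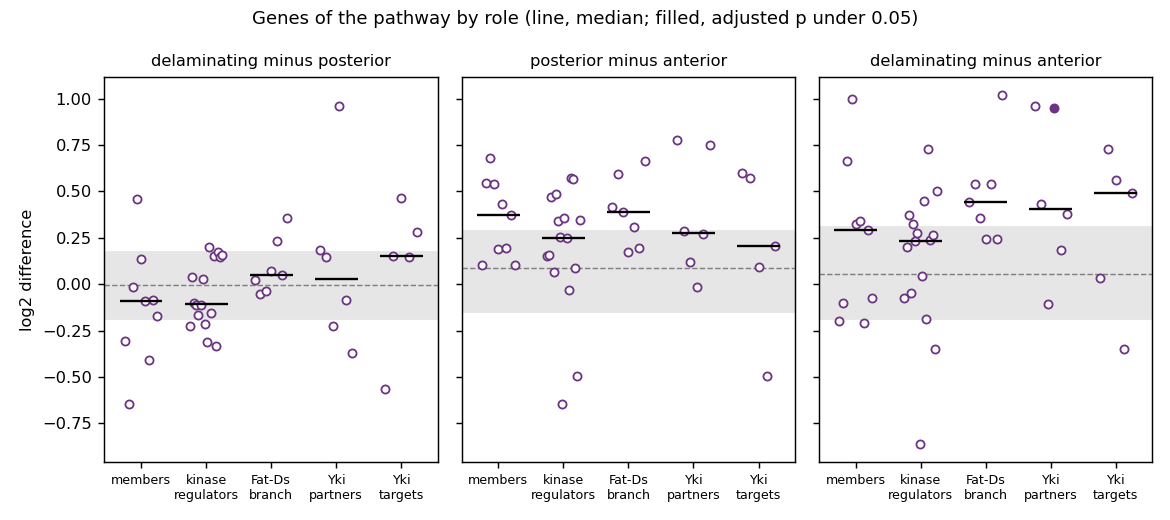
Log2 differences (vertical axes) of the 9 measured genes and of 4 lists of other pathway genes in the 3 comparisons. Points are genes, lines are medians, the dashed line is the median of all genes and the grey band their middle quartiles; the single filled point is Wbp2 in delaminating minus anterior cells.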

How the data were processed

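RNA of 9 samples of sorted wing disc cells, amplified as a whole transcriptome, was measured on Affymetrix arrays, 1 array per sample. The deposited values were log2 signals that the authors made with RMA, which corrects background, normalizes quantiles and summarises the probes of a set, per the submitters' processing notes. The version of RMA is not given in the sources used here. Values were used as deposited. For arrays, their number limits the precision.

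Of 18952 probe sets 183 controls were left out, and 13647 carried 1 gene symbol, updated by gene identifier to RefSeq. A gene with several sets was read from the brightest by mean over 9 arrays, giving 11982 genes. Sets with several symbols (402) or none (4720) were not used. Comparisons used limma 3.58.1 (R 4.3.3), with a mean per group over all 9 arrays and two-sided moderated tests, adjusted by Benjamini-Hochberg over all genes. The procedure was tested on simulated data.

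The members and lists were chosen with earlier results of these data known. The text names all members, the called genes of each list, and of a pathway list with none the 2 with the smallest p. Alternatives were a replicate block, filtering, normalization, probe set choice, variance models, array weights and arrays left out. Figures were drawn with matplotlib 3.10.9. Correlations of deviations from group means ran from -0.12 to 0.181 for same-numbered arrays and from -0.181 to 0.146 for arrays of other numbers. These ranges overlap, though 8 of 9 arrays correlated best with their own number in another group. They do not settle whether the numbers pair the samples. The main fit left the numbers out, and the replicate block took them in.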

Additional observations from a re-analysis of the deposited data

How the results depend on the processing

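Of 513 values of the members over 19 alternatives, 475 kept their direction and their side of the threshold. A replicate block, the filter, the probe set choices, the variance models and the fit of only the groups compared leave a member's difference unchanged. So does leaving out an array of the third group. In these settings only the side of the threshold could change. In delaminating minus anterior cells fj was the 1 member called, with the dimmest 25% of genes left out, with quantile normalization again, with an intensity trend and robust variances, with array weights, without anterior replicate 1 or 3, and without anterior replicate 3 and delaminating replicate 2 together, against 0 as reported. Leaving out 1 array gave 0 to 1 members there and 0 in the other comparisons. In delaminating minus posterior cells array weights called 1 member, ds. With a replicate block 0 members were called in each comparison (fj in delaminating minus anterior cells at adjusted p = 0.102), and the calls of Wbp2 in delaminating minus anterior cells (0.0517), of tsh, Doc2, Him, hbs and mirr in delaminating minus posterior cells (0.0547 to 0.0726) and of tsh in posterior minus anterior cells (0.0846) were lost; 8 of 9 arrays correlated best with an array of their own number in another group, a hint from the data and not from the design.

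Directions of differences that were not called turned under some settings. With array weights hpo gave -0.097, yki -0.16 and Mer -0.17 in posterior minus anterior cells, and hpo -0.023 and wts -0.29 in delaminating minus anterior cells. Without anterior replicate 3 and delaminating replicate 2, hpo gave -0.17, yki -0.12 and Mer -0.14 in the first of these, and hpo -0.13 and wts -0.27 in the second. Quantile normalization again gave -0.020 for yki and -0.0017 for Mer in posterior minus anterior cells, and centring gave 0.0041 for ex in delaminating minus posterior cells. The cause was not tested. Settings for dlp, for the called markers Him, hbs, mirr, moody and FASN1 and for the medians of the pathway lists were added after seeing the data. With 1 array left out, delaminating minus posterior differences ran from -0.030 to 0.33 for hpo, -0.28 to 0.095 for wts, -0.25 to 0.11 for ex and -0.098 to 0.014 for Fbxl7. Those for posterior minus anterior cells ran from -0.17 to 0.43 for hpo, -0.12 to 0.27 for yki, -0.14 to 0.27 for Mer and -0.15 to 0.083 for Wbp2. In delaminating minus anterior cells they ran from -0.031 to 0.56 for hpo, -0.34 to 0.0096 for sav, -0.076 to 0.47 for wts, -0.29 to 0.10 for yki and -0.36 to 0.061 for ds.

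Over all genes the count called ranged from 17 to 749 in delaminating against posterior cells (96 as reported), from 35 to 427 in posterior against anterior cells (69) and from 180 to 1974 in delaminating against anterior cells (458), highest with array weights each time. No detection calls were analysed, and all 9 members had signals above the arrays' lower quartiles.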
